A study of Mus musculus with 9 samples.

Results

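Flavin-containing monooxygenases (FMO enzymes) were followed in the livers of mice kept in microgravity in space (MG mice), at 1 g in a centrifuge in space (A1G mice) and on Earth as controls (GC mice). The family was represented by 4 genes, *Fmo5*, *Fmo1*, *Fmo2* and *Fmo4*, which were chosen by symbol with earlier results of the same libraries known, so the values below describe the genes and are no independent evidence for their choice. All 4 were among the 13193 genes, of 34866 in the deposited table, that passed the filter on low counts, and the lowest estimated count of any of them in any mouse was 66.

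FMO enzymes sit in the membrane of the endoplasmic reticulum, carry FAD and take electrons from NADPH. They add an oxygen atom to soft nucleophiles, mostly the nitrogen of amines and the sulfur of thioethers and thiocarbamides, and so act beside the cytochromes P450 on drugs, on dietary amines and on some sulfur compounds of the body itself. In the mouse, FMO genes are expressed differently between tissues and, in liver, several of them differ between the sexes.

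All 9 mice were wild-type C57BL/6J males, 3 per group, and the flown mice spent 30 days in space. The labels give no age. The MG and A1G mice went through launch, landing and the interval before dissection on Earth, and the GC mice were housed on the ground as a separate experiment, so that in the comparisons with GC mice the flight, the site and the date cannot be told apart. MG and A1G mice shared the flight. Each library was poly(A) RNA of a piece of whole liver from 1 mouse, and the 3 comparisons share libraries, since each group enters 2 of them.

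The libraries held 13189515 to 23738049 estimated counts, and Pearson's r between mice of the same group lay between 0.969 and 0.983 over all genes tested. Genes of hepatocytes dominated every library: the summed level of 6 hepatocyte markers was 58137 to 65431 TPM (the deposited level, corrected for transcript length and library size) in MG mice, 58777 to 62608 TPM in A1G mice and 50121 to 59036 TPM in GC mice. The summed TPM of the markers of Kupffer cells, liver endothelium, stellate cells and fibroblasts, cholangiocytes, lymphocytes and neutrophils, erythroid cells, adipocytes and pancreas overlapped between MG and GC mice. In CPM (counts relative to the library's total, scaled by the trimmed mean of M-values and not corrected for length), the markers tested did not overlap for erythroid cells, at 142 to 251 in MG mice and 316 to 358 in GC mice, or for lymphocytes and neutrophils, at 6.58 to 7.11 in MG mice and 5.67 to 6.57 in GC mice. Endothelial markers did not overlap between A1G and GC mice, at 88.7 to 108 and 53.7 to 83.9 TPM, or 166 to 181 and 115 to 159 CPM. Cholangiocyte markers did not overlap between MG and A1G mice in CPM, at 28.1 to 32.4 and 33.1 to 50.4. Of all these markers only *Col1a1*, a fibrillar collagen gene, passed the edgeR test in MG against GC mice, where it was lower. DESeq2 on the 6 libraries compared called more of them lower: 5 of 5 erythroid, 3 of 12 stellate and fibroblast, 1 of 5 tested cholangiocyte and 1 of 6 hepatocyte markers, and 0 higher. Over all genes, DESeq2 called 503 lower and 298 higher, against 284 lower and 155 higher by edgeR. Their part in the values of the FMO genes was not tested.

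In GENCODE M21 on GRCm38, *Fmo4* (ENSMUSG00000026692.12, chr1:162793188-162813972), *Fmo1* (ENSMUSG00000040181.14, chr1:162829561-162866610) and *Fmo2* (ENSMUSG00000040170.13, chr1:162874317-162898726) lie side by side on the minus strand of chromosome 1 within 106 kb. The gap between *Fmo4* and *Fmo1* is 15.6 kb and that between *Fmo1* and *Fmo2* 7.71 kb. *Fmo5* (ENSMUSG00000028088.14, chr3:97628804-97655282) lies on the plus strand of chromosome 3. All 4 are protein-coding genes. They are paralogs of each other, and reads of stretches that paralogs share are divided between genes by the authors' estimate.

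The stretch upstream of *Fmo2*, the gene with the largest difference between groups, is shown because it lies wholly outside the annotated gene. It is the 250 bases before the RefSeq start (GRCm38.p6, chr1:162898759-162899008, minus strand, read 5′ to 3′). No part is in capitals because no motif searched was found in it.
Fmo2: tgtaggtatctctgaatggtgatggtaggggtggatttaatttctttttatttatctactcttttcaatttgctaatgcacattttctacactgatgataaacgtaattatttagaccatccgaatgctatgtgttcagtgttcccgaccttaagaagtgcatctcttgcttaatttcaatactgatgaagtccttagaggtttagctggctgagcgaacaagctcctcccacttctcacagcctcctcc
This stretch has a G and C content of 39.6% and 4 CpG dinucleotides, against medians of 52.4% and 6 over the 32851 upstream stretches of the same length in the RefSeq table. A motif of the STAT5 type, spelled TTCNNNGAA and searched like the others on both strands, occurs in 7.02% of all such stretches. The TATA box, spelled TATAAA, occurs in 12.4% of them. The core of the nuclear receptor site, spelled AGGTCA, occurs in 14% of them. A motif of the HNF1 type, spelled GTTAAT, occurs in 6.43% of them. The core of the antioxidant response element, spelled TGACNNNGC, occurs in 10.2% of them. None of these 5 is in the *Fmo2* stretch, which says only that those letters are not in this window. The stretches for *Fmo4* and *Fmo5*, and that for the second RefSeq start of *Fmo2*, overlap the annotated gene and are not printed. AGGTCA occurs in the stretch for the second *Fmo2* start and, on the other strand, in that for *Fmo4*. TATAAA occurs on the other strand of the stretch for *Fmo5*. Whether any of these sites is bound was not tested.

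The 4 genes kept the same order of level in every liver. *Fmo5* was the most abundant, with a median of 426 TPM over the 9 livers and a range of 374 to 584 TPM. *Fmo1* followed with a median of 173 TPM and a range of 113 to 273 TPM. *Fmo2* had a median of 17.9 TPM and a range of 8.38 to 73.6 TPM, and *Fmo4* a median of 4.66 TPM and a range of 3.68 to 6.59 TPM. The ranges of neighbours in this order did not overlap, so each gene lay above the next in all 9 livers. By mean TPM over all libraries the genes ranked 258, 643, 3172 and 7970 in the same order. The highest liver exceeded the lowest 8.78-fold for *Fmo2*, 2.41-fold for *Fmo1*, 1.79-fold for *Fmo4* and 1.56-fold for *Fmo5*.

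**Figure D1:**
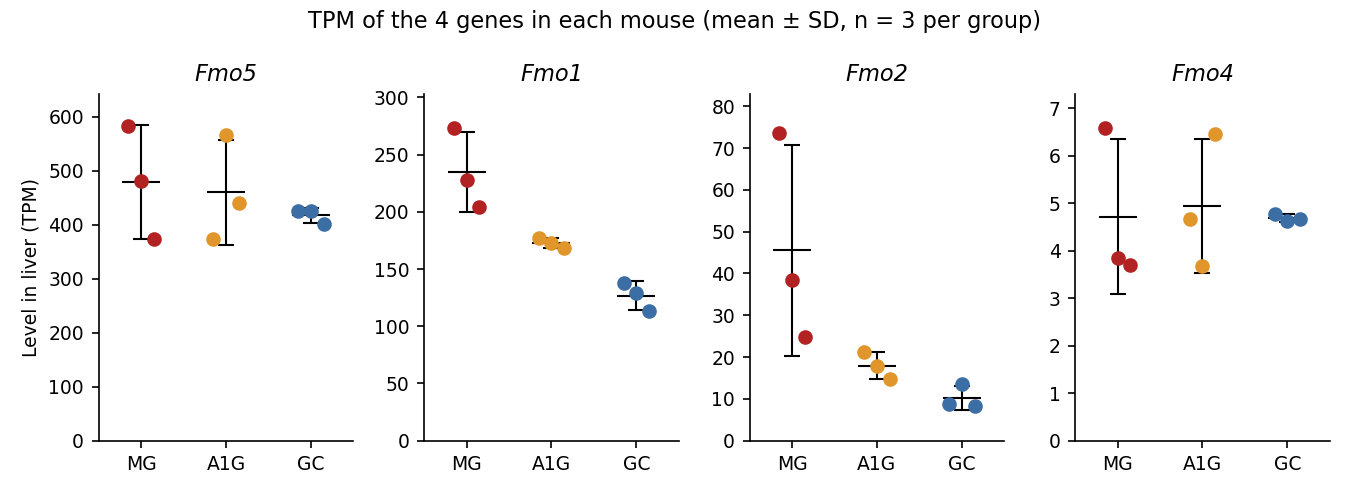
Level of each gene in TPM (y axis, from 0, a scale per gene) in each mouse (points), by group (x axis: MG, A1G, GC), with the mean and SD of 3 mice per group. In TPM the MG livers lie above the A1G livers and these above the GC livers for *Fmo1* and *Fmo2*, while the groups overlap for *Fmo5* and *Fmo4*. In CPM the A1G and GC livers overlap for *Fmo1* and *Fmo2*.

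Against GC mice, MG mice had more *Fmo2* and *Fmo1* RNA, by 1.89 ± 0.34 and 0.68 ± 0.14 on the log2 scale (± SE, n = 3 per group), and these 2 genes passed the test (edgeR quasi-likelihood test, Benjamini-Hochberg adjusted p under 0.05 over all genes tested). *Fmo5*, the most abundant of the 4, had a fitted log2 difference of −0.06 ± 0.20. *Fmo4* had −0.79 ± 0.26 and did not pass (adjusted p = 0.136). Thus 2 of the 4 genes were called, both higher, where 3.33% of all genes tested were called (1.17% higher and 2.15% lower). The balance of directions over all genes turned with the scaling: 155 genes were higher and 284 lower here, 350 and 192 with library size only, and 310 and 92 with limma on log2(TPM + 1). Since the contrast was known when the genes were chosen, nothing is read from that count. In whole liver, fewer cells of a type and less RNA per cell cannot be told apart.

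In A1G against GC mice, 0 of the 4 genes were called by the edgeR quasi-likelihood test, where 0.644% of all genes were. At an unadjusted p under 0.05 there was 1 of the 4, *Fmo4*, against 1876 of the 13193 genes tested. DESeq2 on the 6 or the 9 libraries and limma on log2(TPM + 1) also called 0. In MG against A1G mice, 0 of the 4 were called by edgeR, where 0.0758% of all genes were. At an unadjusted p under 0.05 there were 2, *Fmo1* and *Fmo2*, against 1184 of the 13193 genes tested. DESeq2 on the 6 libraries compared called 1, *Fmo1*, where it called 176 of all genes. DESeq2 on 9 libraries and limma called 0.

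**Figure D2:**
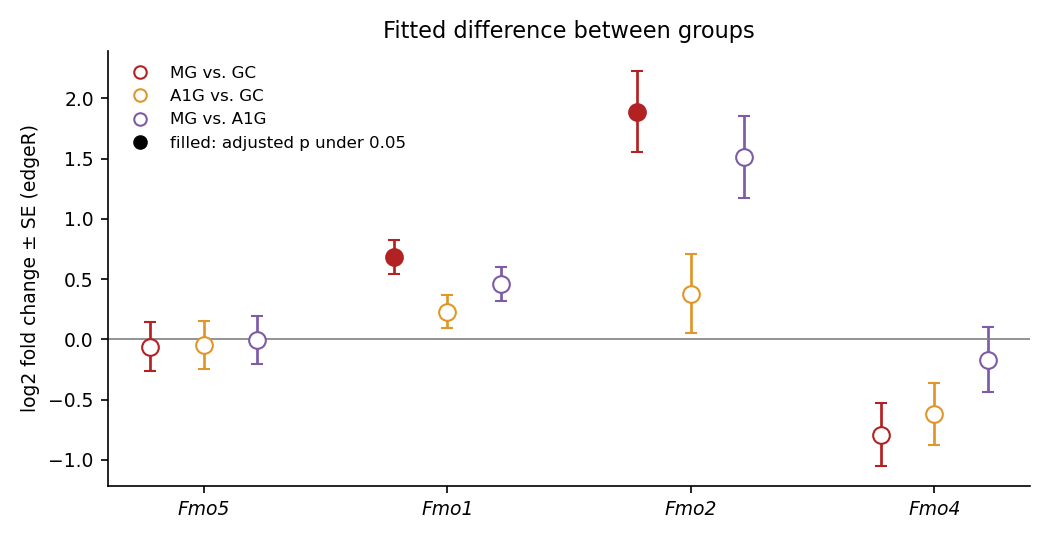
Fitted log2 fold change with its SE (y axis) of the 4 genes (x axis) in MG vs. GC, A1G vs. GC and MG vs. A1G (colours), from the edgeR fit of all 9 libraries, with filled points for an adjusted p under 0.05. *Fmo2* at 1.89 and *Fmo1* at 0.68 in MG vs. GC are the filled points, and *Fmo5* lies near 0 in all 3 comparisons.

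*Fmo2* encodes the main FMO of the lung in many mammals and has a low level in adult mouse liver. It had 73.6, 38.4 and 24.7 TPM in MG replicates 1 to 3, against 21.2, 17.9 and 14.7 TPM in A1G replicates and 8.71, 13.6 and 8.38 TPM in GC replicates. In TPM every MG liver lay above every A1G liver, and every A1G liver above every GC liver. The share of all genes whose groups do not overlap in TPM was not counted. The spread within MG mice was wide: the coefficient of variation of the TPM was 55.4% in MG mice, 18.2% in A1G mice and 28.6% in GC mice.

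In CPM, *Fmo2* had 176, 90.6 and 57.2 CPM in MG mice, 39.1, 40.4 and 34.3 CPM in A1G mice and 28.8, 38.1 and 20.3 CPM in GC mice. On this scale the MG livers still lay above all others, while the A1G and GC livers overlapped. In A1G against GC mice the median log2 difference of all genes was 0.24 with limma on log2(TPM + 1) and 0.00 in the edgeR fit. The fitted difference was 1.89 ± 0.34 on the log2 scale in MG against GC mice, a fold of 3.72 (edgeR adjusted p = 0.0112). It was 0.38 ± 0.33 in A1G against GC mice (edgeR adjusted p = 0.64) and 1.51 ± 0.34 in MG against A1G mice (edgeR adjusted p = 0.133). The MG against GC difference of *Fmo2* was larger than that of 98.7% of genes in either direction. MG replicate 1, the liver with the most *Fmo2*, carried part of this size: leaving out each library in turn, the log2 difference ranged over 1.36 to 2.20, and it was no longer called without GC replicate 1 (edgeR adjusted p = 0.051).

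*Fmo1* encodes an FMO of broad substrate range that oxidises methimazole and many tertiary amines, and that can turn hypotaurine into taurine. In mouse liver its level is known to be higher in females. It had 273, 228 and 204 TPM in MG replicates 1 to 3, against 177, 173 and 168 TPM in A1G replicates and 138, 129 and 113 TPM in GC replicates. As for *Fmo2*, the 3 groups did not overlap in TPM, but the steps were smaller and the MG mice were more alike, with a coefficient of variation of 14.8% in MG mice, 2.52% in A1G mice and 9.77% in GC mice. The share of all genes for which this holds in TPM was not counted. With limma on log2(TPM + 1), the median log2 difference of all genes was itself 0.24 in MG and in A1G mice against GC mice.

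In CPM, *Fmo1* had 438, 392 and 327 in MG mice, 284, 293 and 266 in A1G mice and 277, 240 and 203 in GC mice. The MG livers lay above all others, and the lowest A1G liver lay below the highest GC liver. The fitted difference was 0.68 ± 0.14 in MG against GC mice, a fold of 1.61 (edgeR adjusted p = 0.0224). It was 0.23 ± 0.14 in A1G against GC mice (edgeR adjusted p = 0.488) and 0.46 ± 0.14 in MG against A1G mice (edgeR adjusted p = 0.294). The MG against GC call of *Fmo1* was lost without MG replicate 1, MG replicate 2 or GC replicate 2 (edgeR adjusted p = 0.0963, 0.0829 and 0.0878), with log2 differences of 0.59, 0.68 and 0.69.

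*Fmo5* differs in its chemistry: it is known for inserting oxygen into ketones (Baeyer-Villiger oxidation) rather than for oxidising amines, and mice that lack it are lean with low plasma cholesterol. It had 584, 481 and 374 TPM in MG mice, 374, 566 and 440 TPM in A1G mice and 426, 426 and 402 TPM in GC mice. The GC livers lay inside the range of both flown groups. In CPM it had 1329, 1118 and 843 in MG mice, 867, 1386 and 1045 in A1G mice and 1298, 1128 and 995 in GC mice, which again overlapped in every pair of groups.

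The fitted log2 difference of *Fmo5* was −0.06 ± 0.20 in MG against GC mice, −0.05 ± 0.20 in A1G against GC mice and −0.0029 ± 0.20 in MG against A1G mice (edgeR adjusted p = 0.922, 0.932 and 0.999). The sign depended on the scaling. With limma on log2(TPM + 1) the MG against GC value was 0.17 ± 0.20, and with library size as the only scaling it was 0.09 ± 0.18. Those scalings moved the median of all genes by 0.24 and 0.14, and relative to that median *Fmo5* stood at −0.06 and −0.05. On the same footing *Fmo1* stood at 0.64 and 0.69, and *Fmo2* at 1.71 and 1.89.

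*Fmo4* is the least studied of the 4, with few substrates known. Its counts were low, 66 to 216 per liver. In CPM it had 7.57, 3.33 and 4.84 in MG mice, 5.38, 5.78 and 6.44 in A1G mice and 10.6, 8.59 and 7.98 in GC mice. Every flown liver lay below every GC liver on this scale, and the MG and A1G livers overlapped. The fitted log2 difference was −0.79 ± 0.26 in MG against GC mice, −0.62 ± 0.26 in A1G against GC mice and −0.17 ± 0.27 in MG against A1G mice (edgeR adjusted p = 0.136, 0.309 and 0.921). Without MG replicate 1 the MG against GC value was −1.15 and passed the test (edgeR adjusted p = 0.0439).

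In TPM the same gene showed no such gap: *Fmo4* had 6.59, 3.85 and 3.70 TPM in MG mice, 4.67, 3.68 and 6.46 TPM in A1G mice and 4.78, 4.63 and 4.66 TPM in GC mice. The flown livers lay on both sides of the GC livers, and limma on log2(TPM + 1) gave −0.03 ± 0.22 for MG against GC mice. The counts and the TPM differ by the effective length that the authors' quantification assigned to the gene. This length can be read from the ratio of the 2 tables, a step added after seeing the data. As a percent of the GC mean, the implied length of *Fmo4* was 72.7, 53.3 and 82.7 in MG mice, 75.3, 95.6 and 64.1 in A1G mice and 101, 98.9 and 99.7 in GC mice. It was thus shorter in every flown liver than in any GC liver. The share of all genes with no such overlap in implied length was not counted.

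The log2 ratio of implied lengths of *Fmo4* in MG against GC mice was −0.55 ± 0.20 (limma on 11490 genes, unadjusted p = 0.029, adjusted p = 0.856), larger than that of 97.9% of those genes. An unadjusted p under 0.05 was found for 629 of the 11490 genes. The annotation lists 6 transcripts of *Fmo4*, 4 of them protein coding, with spliced lengths between 680 and 2683 bases. Which transcripts the counts came from was not tested. The implied length of *Fmo1* lay between 93.9% and 107% of the GC mean, that of *Fmo2* between 82.1% and 103% and that of *Fmo5* between 98.9% and 108%. The shift of *Fmo5* was small but had smaller p-values. Its log2 ratio was 0.09 ± 0.01 in A1G against GC mice (limma, unadjusted p = 2.89e-04, adjusted p = 0.195). In MG against A1G mice it was −0.08 ± 0.01 (limma, unadjusted p = 8.12e-04, adjusted p = 0.491). Neither pair of groups overlapped in the implied length of *Fmo5*.

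**Figure D3:**
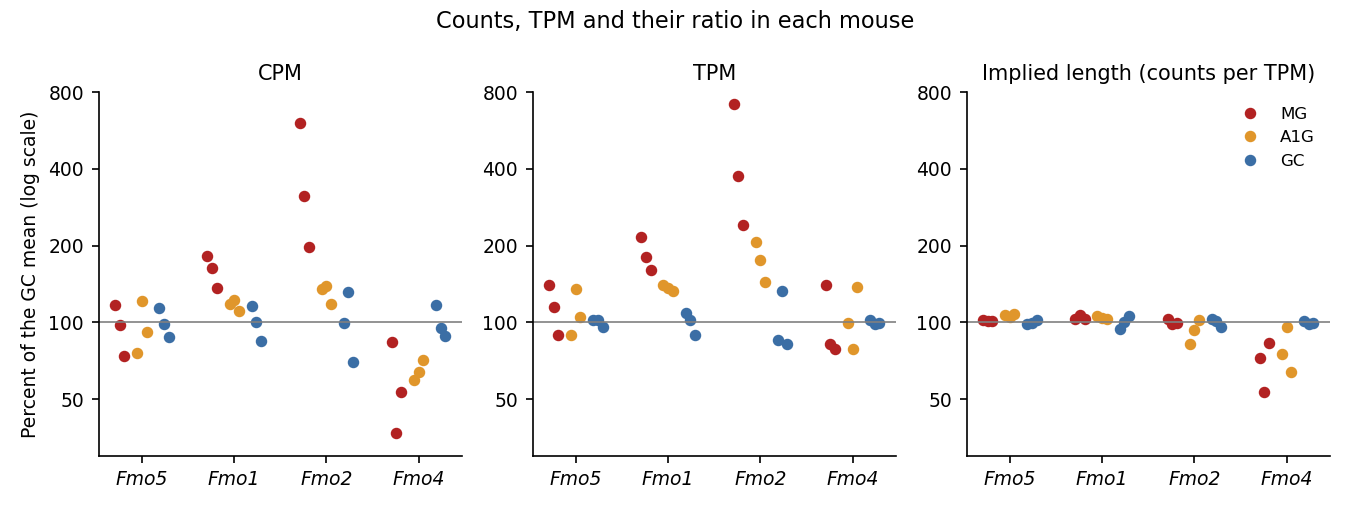
CPM (left), TPM (middle) and implied effective length (right) of each gene in each mouse, as a percent of the GC mean (y axis, log scale), in MG, A1G and GC mice. *Fmo4* lies below the GC mice in CPM and in implied length but on both sides of them in TPM, while *Fmo1*, *Fmo2* and *Fmo5* have implied lengths between 82.1% and 108%.

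Comparing the groups by overlap of their CPM alone, 3 of the 4 genes did not overlap between MG and GC mice (*Fmo1*, *Fmo2* and *Fmo4*), where 22.7% of all genes tested did not. *Fmo4* was the only 1 of the 4 that did not overlap between A1G and GC mice, where the share of all genes was 19.4%. *Fmo1* and *Fmo2* did not overlap between MG and A1G mice, where the share was 15.4%.

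In the makeup of the summed TPM of the 4 genes, MG and GC mice did not overlap in the share of any gene. A1G and GC mice overlapped in the share of every gene. The summed TPM of the 4 genes was 937, 751 and 606 in MG mice, 576, 761 and 629 in A1G mice and 577, 573 and 528 in GC mice. In TPM the MG livers lay above the GC livers, and the A1G livers overlapped with both. In CPM the sums were 1951, 1603 and 1232 in MG mice, 1195, 1725 and 1352 in A1G mice and 1615, 1415 and 1226 in GC mice, and all 3 groups overlapped. *Fmo5* made up 62.7% ± 1.19 of this sum in MG mice, 69.7% ± 4.75 in A1G mice and 74.7% ± 1.20 in GC mice (SD, n = 3 per group). The MG livers lay close to each other in this share although their sums were not close, and they lay below all A1G and GC livers.

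*Fmo1* made up 31.0% ± 2.35 of the sum in MG mice, 26.7% ± 3.93 in A1G mice and 22.6% ± 1.21 in GC mice (SD, n = 3 per group). *Fmo2* made up 5.68% ± 1.95 in MG mice, 2.79% ± 0.77 in A1G mice and 1.82% ± 0.479 in GC mice, and *Fmo4* 0.609% ± 0.0952, 0.774% ± 0.274 and 0.840% ± 0.039 in the same order of groups. The ratio of *Fmo1* to *Fmo5* TPM was 0.466, 0.475 and 0.546 in MG mice, 0.473, 0.307 and 0.382 in A1G mice and 0.323, 0.303 and 0.282 in GC mice. MG and GC mice did not overlap in this ratio, which needs no scaling between libraries. The ratio of *Fmo2* to *Fmo1* was 0.270, 0.168 and 0.121 in MG mice, 0.120, 0.103 and 0.0874 in A1G mice and 0.0634, 0.106 and 0.0741 in GC mice. With 3 mice against 3, the smallest two-sided p of an exact permutation test is 0.1, and the shares of all 4 genes and both ratios reached it in MG against GC mice, so these differences could not pass 0.05.

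**Figure D4:**
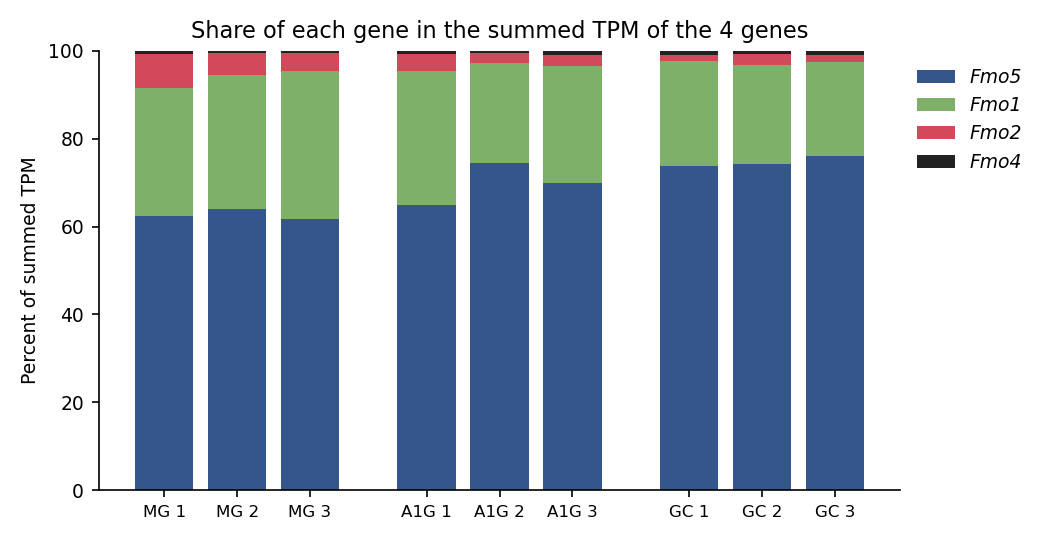
Percent of the summed TPM of the 4 genes (y axis, 0 to 100) held by each gene (colours) in each mouse (bars; MG, A1G, GC). The *Fmo5* part is 61.7% to 64.0% in MG mice and 73.8% to 76.1% in GC mice.

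Across the 9 livers the log2 CPM of *Fmo1* and *Fmo2* varied together (Pearson r = 0.94, Spearman rho = 0.93, n = 9, a description over livers of 3 groups). Within groups, as deviations from the group means, the r of *Fmo1* with *Fmo2* was 0.79, that of *Fmo1* with *Fmo5* 0.76 and that of *Fmo2* with *Fmo5* 0.67. In CPM, MG replicate 1 had the most *Fmo1*, *Fmo2* and *Fmo5* of the MG mice and MG replicate 3 the least, and these libraries held 16898348 and 13189515 estimated counts. MG replicate 2 lay between them for these genes and had the deepest library of the MG mice, with 20303599 estimated counts. *Fmo4* had an r of −0.48 with *Fmo1* and −0.39 with *Fmo2* over the 9 livers, and of 0.45 and 0.53 within groups.

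Likeness of log2 CPM over the 9 livers was compared among 10358 genes tested with a mean of at least 50 counts. FMO genes and genes without a symbol were left out of the ranking. The 3 most like *Fmo1* were *Cyp2e1* (Pearson r = 0.985), *Mafg* (0.950) and *Igfals* (0.948). *Cyp2e1* encodes an abundant cytochrome P450 of pericentral hepatocytes that oxidises ethanol, and *Igfals* the acid-labile subunit that carries insulin-like growth factors in plasma. *Igfals* rose in MG against GC mice by 0.67 ± 0.12 on the log2 scale (n = 3 per group, edgeR adjusted p = 0.00982), while *Cyp2e1* had 0.55 ± 0.15 (edgeR adjusted p = 0.0724) and *Mafg* 0.24 ± 0.09 (edgeR adjusted p = 0.203).

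For *Fmo2* the most alike were *Fgf1* (Pearson r = 0.983), which encodes a fibroblast growth factor, *Prps1* (0.969), which encodes a phosphoribosyl pyrophosphate synthetase, and again *Mafg* (0.934). *Fgf1* had a log2 difference of 0.44 ± 0.11 in MG against GC mice (n = 3 per group, edgeR adjusted p = 0.0539), far below the 1.89 of *Fmo2*. For *Fmo5* they were *Rcc1* (0.927), *Vkorc1* (0.912), the vitamin K epoxide reductase, and *Manbal* (0.893). For *Fmo4* they were *Ms4a4d* (0.959), *Dhrs7* (0.940), a short-chain dehydrogenase, and *Adamtsl4* (0.939). *Dhrs7* had −0.70 ± 0.17 in MG against GC mice (n = 3 per group, edgeR adjusted p = 0.0501). These r values, picked as the highest of 10358 over 9 livers that share their grouping, describe likeness and nothing more.

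*Cyp2e1* was on a list of 9 pericentral hepatocyte genes, whose summed TPM was 5399 to 6202 in MG mice, 4548 to 4738 in A1G mice and 3472 to 3964 in GC mice. *Cyp2e1* carried that gap: without it the sum was 928 to 1225 TPM in MG mice, 981 to 1110 TPM in A1G mice and 1023 to 1182 TPM in GC mice, and the groups overlapped. In CPM the sum of all 9 overlapped between MG and GC mice and between A1G and GC mice. The list median was a log2 difference of −0.35 in MG against GC mice and −0.36 in A1G against GC mice.

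*Cyp1a2*, another pericentral P450, fell by 1.64 ± 0.22 on the log2 scale in MG against GC mice (n = 3 per group, edgeR adjusted p = 0.00242). It was the gene of the list called by edgeR, with 0 called higher. At an unadjusted p under 0.05, 1 was higher and 2 were lower, and DESeq2 called 1 higher and 1 lower. Of 9 periportal hepatocyte genes 1 was called, *Cdh1*, which encodes E-cadherin and fell by 1.41 ± 0.20 (n = 3 per group, edgeR adjusted p = 0.00285). At an unadjusted p under 0.05, 1 of the periportal genes was higher and 5 were lower, DESeq2 called 1 higher and 4 lower, and the list median was −0.32. The part of zonation in the levels of *Fmo1* and *Fmo2* was not tested.

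Within 1 Mb of the chromosome 1 genes, 9 other genes of 38 annotated were tested, and 0 were called by edgeR in MG against GC mice (smallest adjusted p = 0.0767), where 3.33% of all genes tested were. Of the 9 neighbours, 1 had an unadjusted p under 0.05, and DESeq2 called 0. Of the 13193 genes tested, 2438 had such a p, and DESeq2 called 801 of all genes. Their median log2 difference was 0.15, against 0.004 over all genes. Within 1 Mb of *Fmo5*, 18 of 58 were tested, and 1 was called in MG against GC mice: *Chd1l*, a chromatin remodeller that lies next to *Fmo5* on the opposite strand, at −0.79 ± 0.19 (n = 3 per group, edgeR adjusted p = 0.0404). At an unadjusted p under 0.05 there were 5 of the 18, and DESeq2 called 2, both lower. *Fmo5* itself had −0.06 ± 0.20 there.

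The pathways around the FMO reaction were read from 7 lists holding 97 genes, 92 of them tested. In MG against GC mice 4 were higher, 3 were lower and 85 were not called (7.61% called, against 3.33% of all genes). In A1G against GC mice 1 was called (1.09%, against 0.644% of all genes), and in MG against A1G mice 1 (1.09%, against 0.0758%). For the counts per list below, edgeR called 1.17% of all genes higher and 2.15% lower in MG against GC mice. At an unadjusted p under 0.05, 1086 of the 13193 genes tested were higher there and 1352 were lower. DESeq2 called 298 of all genes higher there and 503 lower.

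FMO enzymes draw on NADPH, and of 12 genes for its supply 1 was higher and 2 were lower in MG against GC mice, with a list median of −0.21. *Me1*, the cytosolic malic enzyme, had 131 ± 18.1 CPM in MG mice and 435 ± 37.8 CPM in GC mice (SD, n = 3 each), a log2 difference of −1.74 ± 0.18 (edgeR adjusted p = 5.06e-04). *Me1* was also the gene of these lists called in MG against A1G mice, at −1.16 ± 0.18 (n = 3 per group, edgeR adjusted p = 0.0423). *Pgd*, a dehydrogenase of the pentose phosphate pathway, had −1.33 ± 0.16 in MG against GC mice and *Idh2*, the mitochondrial isocitrate dehydrogenase, 0.49 ± 0.11 (n = 3 per group, edgeR adjusted p = 0.00156 and 0.0328). *Fmo1* and *Fmo2* thus were higher in the group in which *Me1* and *Pgd* were lower and *Idh2* was higher. The other 9 of the 12 genes were not called, and a link between these genes and the FMO genes was not tested.

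Of 8 microsomal electron carriers 1 was called in MG against GC mice. *Cyb5r3*, the cytochrome b5 reductase that itself carries FAD, had 268 ± 13.4 CPM in MG mice and 686 ± 87.4 CPM in GC mice (SD, n = 3 each), a log2 difference of −1.35 ± 0.15 (edgeR adjusted p = 6.89e-04). It was also the gene called in A1G against GC mice, at −0.97 ± 0.14 (n = 3 per group, edgeR adjusted p = 0.0214). *Por*, which passes electrons from NADPH to the cytochromes P450 but is not needed by FMO enzymes, had 0.05 ± 0.17 in MG against GC mice.

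Of 7 tested genes for riboflavin uptake and FAD synthesis, 0 were called by edgeR or DESeq2 in MG against GC mice and 0 had an unadjusted p under 0.05. Their median log2 difference was 0.11. *Slc25a32*, a mitochondrial carrier for folate and FAD, was the gene with the smallest p, at 0.15 ± 0.10 (n = 3 per group, edgeR adjusted p = 0.458).

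Of 20 tested genes for other flavin oxidases and reductases, 2 were higher in MG against GC mice and 0 were lower by edgeR. At an unadjusted p under 0.05, 7 were higher and 3 were lower, against 1086 and 1352 of the 13193 genes tested. DESeq2 called 4 higher and 2 lower, against 298 and 503 of all genes. *Maob*, a monoamine oxidase, had 0.69 ± 0.10, close to the 0.68 ± 0.14 of *Fmo1* (edgeR adjusted p = 0.00456, n = 3 per group). *Gsr*, the glutathione reductase, had 0.57 ± 0.14 (edgeR adjusted p = 0.0462, n = 3 per group). The list median was 0.22.

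The sulfur side of the FMO reaction was read from 10 genes of hypotaurine and taurine metabolism, of which 8 were tested. By edgeR 0 were called in MG against GC mice, while 2 were higher at an unadjusted p under 0.05 and DESeq2 called 1 higher. All 8 had fitted values above 0, with a median of 0.33 against 0.004 over all genes. *Cbs*, which starts trans-sulfuration, had 0.49 ± 0.14, *Slc6a6*, the taurine transporter, 0.34 ± 0.13 and *Cdo1*, which makes cysteine sulfinate, 0.33 ± 0.15 (n = 3 per group, edgeR adjusted p = 0.0763, 0.184 and 0.277).

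The amine side was read from 11 genes of choline oxidation and methylamine metabolism, of which 1 was called in MG against GC mice. *Dmgdh*, a mitochondrial flavoenzyme that demethylates dimethylglycine, had 1020 ± 143 CPM in MG mice and 670.0 ± 52.8 CPM in GC mice (SD, n = 3 each), a log2 difference of 0.61 ± 0.15 (edgeR adjusted p = 0.0489). *Slc44a1*, a choline transporter, had −0.39 ± 0.12 (n = 3 per group, edgeR adjusted p = 0.0962). The list median was 0.01.

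Of 27 liver transcription factors and ligand receptors, 0 were called by edgeR in MG against GC mice, and DESeq2 also called 0. Without adjustment, 3 had a p under 0.05 and were higher and 2 were lower, against 1086 and 1352 of the 13193 genes tested. *Onecut1* had the smallest p of them. It had 124 ± 88.2 CPM in MG mice, 74.5 ± 53.2 CPM in A1G mice and 29.0 ± 8.94 CPM in GC mice (SD, n = 3 each), a log2 difference of 2.10 ± 0.63 in MG against GC mice (edgeR adjusted p = 0.0972). *Nfe2l2*, the factor known for binding antioxidant response elements, had −0.41 ± 0.14, and *Nr1i3*, a nuclear receptor for foreign compounds, 0.43 ± 0.16 (n = 3 per group, edgeR adjusted p = 0.145 and 0.184).

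**Figure D5:**
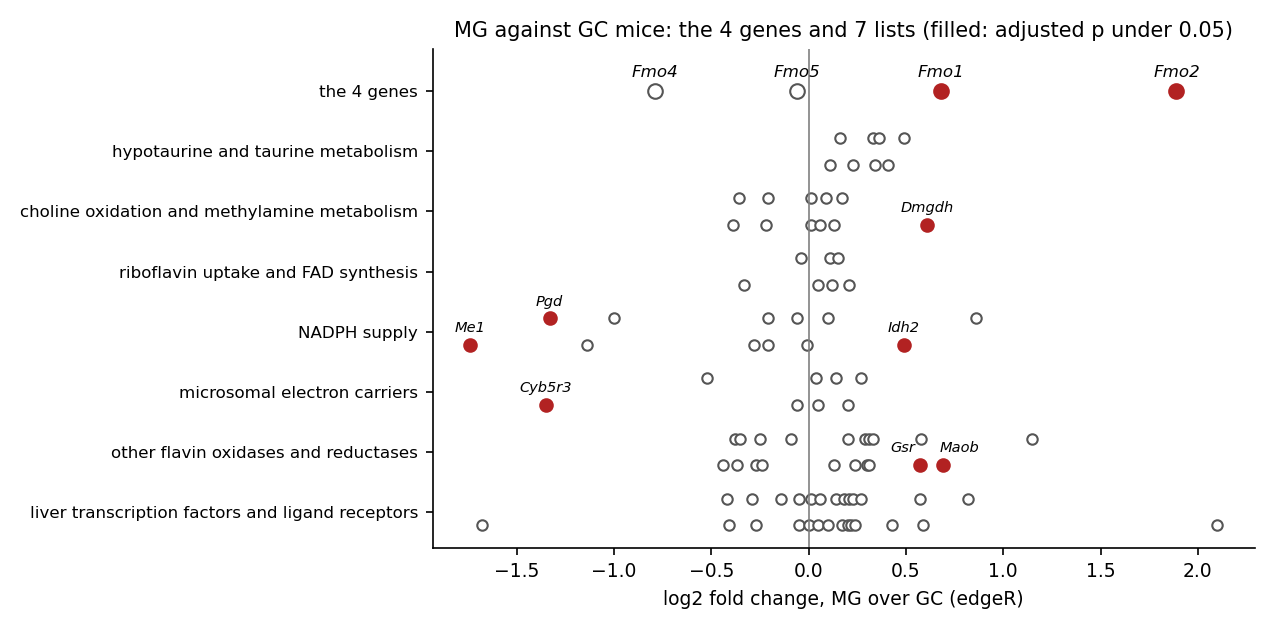
Fitted log2 fold change of MG over GC mice (x axis) for the 4 FMO genes (top row) and for each tested gene of 7 lists (rows), with filled points for an adjusted p under 0.05. *Fmo2* at 1.89 lies to the right of all genes of the lists except *Onecut1* at 2.10, and *Me1* at −1.74, *Cyb5r3* at −1.35 and *Pgd* at −1.33 are the filled points on the left.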

How the data were processed

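Poly(A) RNA from the livers of 9 mice was sequenced with a strand-specific kit (Illumina). The authors filtered reads with fastp 0.19.4, quantified them with Salmon 0.9.1 on GRCm38, and deposited estimated counts and TPM per gene. Their DESeq2 tables (log2 fold changes and p-values) served only to pair IDs with symbols. Every value column had a sample. The estimated counts (17.1% not whole) were rounded and tested with edgeR 4.0.16 (R 4.3.3): filterByExpr at a minimum count of 10, TMM, a quasi-likelihood fit with 1 coefficient per group over 9 libraries, and Benjamini-Hochberg adjustment over 13193 genes at 0.05. SE is the log2 fold change over the square root of F. The alternatives used DESeq2 1.42.0 and limma 3.58.1. The fit was tested on simulated data. Mice are the replicates. The p-values of the main fit set a difference against the spread between mice, which is pooled over the 3 groups and shared in part across genes. Members and lists were chosen with earlier results of these data known. Named genes were the members, up to 3 genes per list with the smallest p in MG against GC mice and up to 2 called in another comparison, the 3 most alike genes per member, and called neighbours. Other genes named by their values were chosen after seeing them. Promoters and gene names came from RefSeq tables (GRCm38.p6), in which 3 of the 4 members have an upstream stretch, and positions from GENCODE M21. Other family members were not analysed here.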

Additional observations from a re-analysis of the deposited data

How the results depend on the processing

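*Fmo1* was called higher in MG against GC mice under all 13 alternative settings (log2 difference 0.66 to 0.89) and in 6 of 9 fits that leave out a library (0.58 to 0.81). *Fmo2* was called under 11 of 13 settings (1.82 to 2.03) and in 8 of 9 such fits (1.36 to 2.20). The settings that lost its call were limma on log2(TPM + 1) with no filter (1.94, adjusted p = 0.057) and a robust edgeR fit (1.89, adjusted p = 0.0667). In MG against A1G mice, *Fmo1* was called by DESeq2 on 6 libraries (0.46, adjusted p = 0.0488; range over settings 0.0488 to 0.585) and *Fmo2* with no filter on low counts (1.50, adjusted p = 3.16e-04; range 3.16e-04 to 0.581) and without MG replicate 3 (1.81), its range without 1 library being 0.96 to 1.81. *Fmo4* in MG against GC mice ranged over −1.15 to −0.53 without 1 library. The causes were not tested. No member changed direction after being called.

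The number of genes called moved more than the members did. In MG against GC mice (439) it was 803 with no filter, 801 and 861 with DESeq2 on 6 and 9 libraries, 272 with limma on log2(TPM + 0.1), and 181 to 642 without 1 library. In A1G against GC mice (85) it was 384, 333 and 395 with no filter and the same DESeq2 fits, 16, 13 and 1 with limma on log2(TPM + 1), on log2(TPM + 0.1) and without a filter, 51 with only the 6 libraries compared, and 4 to 204 without 1 library. In MG against A1G mice (10) it was 1 with library size only, 188, 176 and 164 with no filter and DESeq2, 0 with each limma fit and with only the 6 libraries compared, 34 with the robust fit, and 0 to 48 without 1 library.

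Deviations from group means had an r between −0.00818 and 0.114 for same-numbered mice and between −0.0882 and 0.0407 for the others. In MG against A1G mice every same-numbered pair (0.0586 to 0.114) lay above every other pair (−0.0882 to 0.00593). These replicate numbers are those of the sample titles. In the sample descriptions the MG mice share no number with the A1G or GC mice. Whether the numbers pair the mice was not tested, and the main fit does not use them. With the replicate number as a replicate block, 509 genes were called in MG against GC mice (439 without it). In A1G against GC mice 145 were called (85 without it) and in MG against A1G mice 44 (10 without it). The calls of the 4 members did not change.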
